A study of Homo sapiens with 6 samples.

Results

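SOX17, FOXA2, GATA6 and GSC are transcription factors of the early endoderm, the germ layer that forms gut, liver and pancreas. They were followed in human embryonic stem cells (hESCs) and in endoderm cells made from them. The table of 3' read ends was searched for every region carrying 1 of the 4 symbols. It held 4 such regions, 1 per gene, out of 14686 regions in all, and all 4 passed the filter on low values. The 6 libraries come from H9, an established hESC line, at passage 51. The 3 endoderm libraries are of H9 cells kept for 6 days in RPMI 1640 with activin A at 100 ng/ml, in G1 (0 h), G1/S (3 h) and S (6 h). They had no fetal bovine serum (0%) for a day, then 0.2% for another and 2.0% from then on. The 3 hESC libraries are of undifferentiated cells grown on matrigel in medium conditioned by mouse fibroblasts, in G1 (0 h), G1/S (2 h) and S (3 h). How cells were brought into each phase, and from what event the hours count, is not given in the sources used here. Activin A, serum, medium and days in culture go together with cell type and cannot be told apart from it.

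Activin A stands in for nodal, a ligand of the TGF-beta family that signals through SMAD proteins to make mesoderm and endoderm from pluripotent cells. GSC (goosecoid) is a homeodomain repressor of the organizer and the anterior streak, known in frog and mouse as an early target of nodal and activin signals. GATA6 is a zinc finger factor needed for endoderm, SOX17 an HMG-box factor that sets endoderm identity, and FOXA2 a forkhead pioneer factor that opens chromatin at later gut and liver genes. GATA6 and SOX17 also mark extraembryonic endoderm, and FOXA2 also marks the floor plate of the neural tube.

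A poly(A) signal, the hexamer that directs cleavage of a transcript, sits near the 3' end from which the libraries were primed. The last 30 bases of a GENCODE release 29 transcript are shown for GSC and FOXA2 as examples of such an end, with the hexamer AATAAA in capitals.
GSC: tacAATAAAgtgatggcgatgtagacgggc
FOXA2: caacattttattAATAAAattttcagacat
The hexamer begins 27 bases before the end in GSC and 18 bases before it in FOXA2. AATAAA or ATTAAA is present in that window in the annotated SOX17 transcript and in both FOXA2 transcripts. Neither of the 2 annotated GATA6 transcripts holds it there. Over 83129 protein-coding transcripts, 38.4% hold it. Whether the deposited regions cover these annotated ends was not tested, since the builds differ.

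Promoters in the RefSeq table (build GRCh38.p14, from 250 bases before to 50 bases after the start) were at hand for 2 of the 4 genes, GSC and GATA6. They show the sequence from which these transcripts start. Capitals mark the TATA box TATAAA and the SMAD box CAGAC or its reverse complement GTCTG.
GSC, chr14:94770064-94770363, minus strand: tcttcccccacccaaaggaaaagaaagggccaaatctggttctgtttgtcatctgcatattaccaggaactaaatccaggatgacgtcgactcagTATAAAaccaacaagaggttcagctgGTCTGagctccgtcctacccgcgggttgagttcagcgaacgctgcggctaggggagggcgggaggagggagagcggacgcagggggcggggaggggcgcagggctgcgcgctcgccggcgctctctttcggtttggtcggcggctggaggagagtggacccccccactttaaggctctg
GATA6, chr18:22169339-22169638, plus strand: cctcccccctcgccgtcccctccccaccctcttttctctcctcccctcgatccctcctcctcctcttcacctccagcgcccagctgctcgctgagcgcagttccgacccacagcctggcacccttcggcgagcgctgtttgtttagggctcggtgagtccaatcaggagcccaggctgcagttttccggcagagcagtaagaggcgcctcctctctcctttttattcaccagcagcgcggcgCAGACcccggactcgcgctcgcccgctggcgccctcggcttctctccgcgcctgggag
The GSC window holds TATAAA at -155 and GTCTG at -129 from the start, and the GATA6 window holds CAGAC at -8. Among 35116 promoters of this length, 45.3% hold a SMAD box and 11.5% a TATA box on either strand. The letters searched for FOXH1 (AATNNACA, in 11.03% of promoters), T-box factors (TCACAC, 12.0%), FOXA (TGTTTNC, 17.99%), the GATA family (AGATAA, 10.3%), SOX factors (ACAATG, 10.8%) and bicoid-class homeodomains (TAATCC, 6.36%) are in neither window on either strand. No 2 of the marked matches overlap. A match of letters is a description and not a site.

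The deposited regions carry positions on the older human build named hg18 or NCBI36. Positions are given as deposited, the larger number first where the region is on the minus strand. The region of GSC runs on chromosome 14 from 94309131 to 94308943 (minus strand, 189 bases). That of FOXA2 runs on chromosome 20 from 22510444 to 22509904 (minus strand, 541 bases). That of GATA6 runs on chromosome 18 from 18035702 to 18035950 (plus strand, 249 bases), and that of SOX17 on chromosome 8 from 55535223 to 55535490 (plus strand, 268 bases). The order of the numbers matched the annotated strand in 99.7% of 8834 named regions, these 4 included. Exon and untranslated-region annotation of that build was not used here.

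Values are reads divided by 1 size factor per library, called signal here, and 1 read is worth 0.591 to 1.71. The libraries hold 2502792 (endoderm S) to 6203079 reads (hESC S), and a count of 0 allows up to 3 reads, a signal of 1.77 to 5.13. Values of a cell type are given in the order G1, G1/S and S. Each type and phase has 1 library, so intervals on a single value are 95% counting intervals, which leave out any other source of error. The 3 libraries of a type differ in phase, so p-values rest on the spread of these 6 libraries, which may be technical.

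All 4 genes were higher in endoderm than in hESCs, in each phase and with no overlap. GSC, the organizer factor, had a signal of 2234, 5257 and 1951 in endoderm, against 99.9, 79.1 and 49.0 in hESCs. The lowest endoderm value was 19.5 times the highest hESC value. GSC had 132, 76 and 83 reads in the hESC libraries, all above the limit that a count of 0 allows. Its mean was 3148 ± 1832 in endoderm and 76.0 ± 25.6 in hESCs (SD, n = 3 each), a ratio of 41.4. In limma, fitted to all regions with terms for type and phase, the difference of log2(value + 1) was 5.26 ± 0.33 (SE, limma adjusted p = 0.00131).

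GATA6, the zinc finger factor, had a signal of 215, 284 and 128 in endoderm, against 6.81, 3.12 and 7.09 in hESCs. Endoderm S was the lowest of the endoderm libraries and still stood 18.1 times above the highest hESC library. The hESC signals rest on 9, 3 and 12 reads, at which depth the order of the hESC phases could not be told. The hESC G1/S signal is at the limit that a count of 0 allows. Its counting interval is 0.644 to 9.13, so the level of GATA6 in that library is only loosely bounded. The means were 209 ± 78.2 in endoderm and 5.67 ± 2.21 in hESCs (SD, n = 3 each), with a log2(value + 1) difference of 4.97 ± 0.48 (SE, limma adjusted p = 0.00311).

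SOX17, the HMG-box factor, had a signal of 200.2, 111 and 154 in endoderm, against 4.54, 1.04 and 1.77 in hESCs. These are 290, 67 and 90 reads in endoderm and 6, 1 and 3 reads in hESCs. Endoderm G1/S was the lowest endoderm library, 24.6 times the highest hESC library, which was G1. The means were 155 ± 44.4 in endoderm and 2.45 ± 1.85 in hESCs (SD, n = 3 each), with a log2(value + 1) difference of 5.59 ± 0.43 (SE, limma adjusted p = 0.00183). The hESC G1/S and S signals lie at or under the limit that a count of 0 allows. Their counting intervals are 0.0264 to 5.80 (G1/S) and 0.365 to 5.18 (S). The level of SOX17 in those libraries is only loosely bounded.

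FOXA2, the pioneer factor, had a signal of 92.5, 53.2 and 111 in endoderm, against 8.32, 2.08 and 1.77 in hESCs. The gap was narrowest for FOXA2 among the 4 genes, the lowest endoderm library (G1/S) being 6.40 times the highest hESC library (G1). The hESC signals are 11, 2 and 3 reads, those of G1/S and S again at or under the limit of a count of 0. The means were 85.7 ± 29.6 in endoderm and 4.06 ± 3.70 in hESCs (SD, n = 3 each), with a log2(value + 1) difference of 4.27 ± 0.53 (SE, limma adjusted p = 0.00489).

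**Figure D1:**
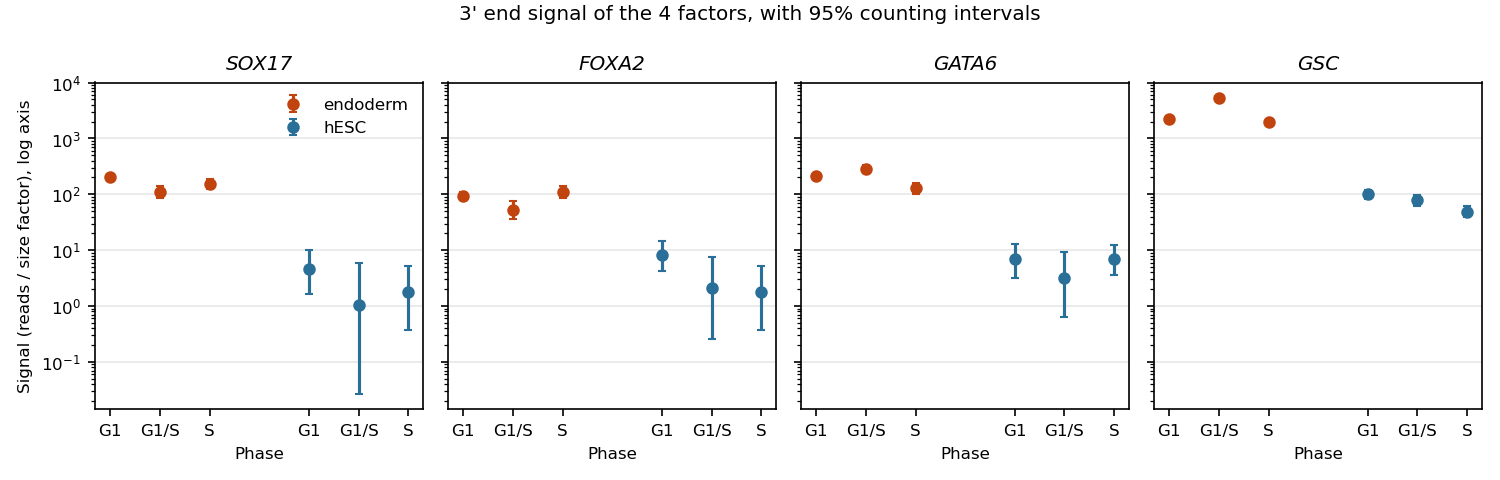
Signal (reads divided by the size factor, log axis) of each gene in the 3 endoderm libraries (left in each panel) and the 3 hESC libraries (right), by phase, with 95% counting intervals. Within each gene no endoderm point lies as low as an hESC point, and GSC in hESCs lies between 49.0 and 99.9 where the other 3 genes are at 8.32 or less.

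Against this stands how often any region did the same. Of 14657 regions tested, 6.9% were called higher and 7.6% lower in endoderm at a limma adjusted p under 0.05, and in 14.7% the lowest endoderm value lay above the highest hESC value. All 4 genes are in both of these sets. They were also called higher by edgeR, which called 5.57% of regions higher, and by DESeq2, which called 9.41% higher. By the size of the log2(value + 1) difference, SOX17 ranked 4, GSC 11, GATA6 16 and FOXA2 58 among the 14657 regions, whose median difference was 0.02. The call was kept under each of the 17 alternatives run for SOX17, GATA6 and GSC and each of the 16 that could be run for FOXA2, with the largest limma adjusted p at 0.0463, for FOXA2 without both G1/S libraries. The differences ranged from 4.42 to 6.05 for SOX17, 3.34 to 4.74 for FOXA2, 4.28 to 5.45 for GATA6 and 4.88 to 5.66 for GSC over those alternatives. The lowest values for SOX17, FOXA2 and GATA6 come from adding 5 in place of 1 before the log, since their hESC signals are small. In bulk libraries, fewer cells that express a gene and less RNA per cell cannot be told apart.

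**Figure D2:**
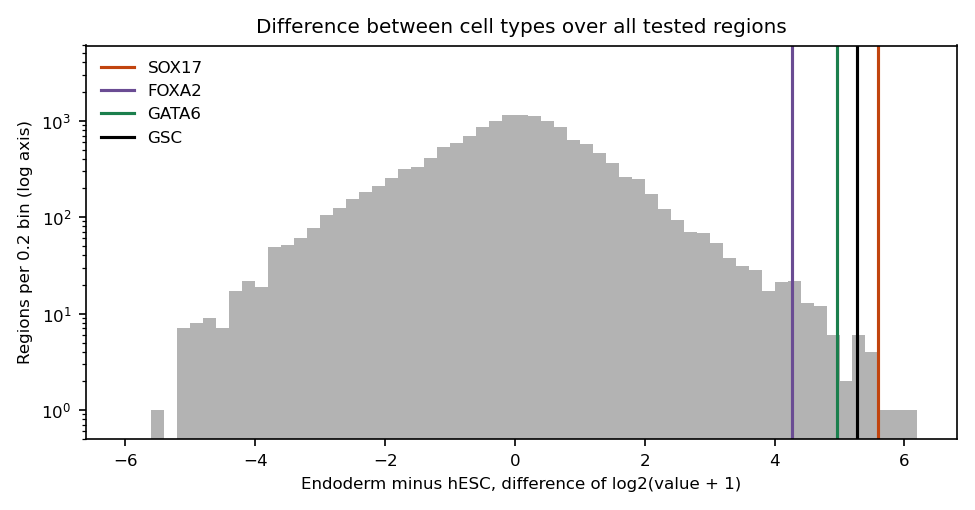
Number of regions (log axis) in each bin of the endoderm minus hESC difference of log2(value + 1), over all 14657 regions tested, with a vertical line for each of the 4 genes. The lines fall at 4.27 (FOXA2), 4.97 (GATA6), 5.26 (GSC) and 5.59 (SOX17), in the upper tail of a distribution whose median is 0.02.

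Within a phase the ratio of endoderm to hESC signal can be read directly, with its counting interval. For GSC it was 22.4 in G1 (18.8 to 26.8), 66.4 in G1/S (52.9 to 84.6) and 39.8 in S (31.8 to 50.4). The 3 intervals do not overlap, so the GSC ratio differed between phases by more than counting error. For GATA6 the ratio was 31.6 in G1 (16.5 to 69.8), 91.1 in G1/S (30.6 to 446, on 3 hESC reads) and 18.1 in S (9.78 to 36.6), with intervals that overlap. SOX17 had ratios of 44.1 in G1 (20.02 to 121), 107 in G1/S (18.6 to 4291) and 86.9 in S (28.8 to 429). FOXA2 had ratios of 11.1 in G1 (6.02 to 22.8), 25.6 in G1/S (6.52 to 220.2) and 62.8 in S (20.6 to 312). For SOX17 and FOXA2 the few hESC reads leave the order of the phases unresolved.

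In the deposited scaling, the course through G1, G1/S and S split the 4 genes into pairs in endoderm. GSC and GATA6 had their highest endoderm signal at G1/S, and SOX17 and FOXA2 their lowest. GSC at G1/S was 2.35 times its G1 signal (2.24 to 2.47), and at S it was 0.371 of its G1/S signal (0.347 to 0.397). GATA6 at G1/S was 1.32 times its G1 signal (1.09 to 1.596), and at S it was 0.451 of its G1/S signal (0.339 to 0.595). SOX17 at G1/S was 0.557 of its G1 signal (0.420 to 0.728), and its S signal was 1.38 times that of G1/S (0.996 to 1.93). FOXA2 at G1/S was 0.575 of its G1 signal (0.378 to 0.851), and its S signal was 2.09 times that of G1/S (1.35 to 3.30). Of the neighbours in these orders, only the SOX17 signals of S and G1/S and the FOXA2 signals of S and G1 (1.20, 0.880 to 1.63) had a ratio whose interval holds 1.

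Reads of 2 genes in the same library are free of the size factor, so their ratio does not depend on the scaling. GSC had 11.2 reads for each SOX17 read in endoderm G1 (9.89 to 12.6), 47.2 in endoderm G1/S (37.0 to 61.0) and 12.7 in endoderm S (10.2 to 15.9). The G1/S library stands apart from both others in this ratio. GATA6 had 2.33 reads for each FOXA2 read in endoderm G1 (1.90 to 2.87), 5.34 in endoderm G1/S (3.65 to 8.06) and 1.15 in endoderm S (0.817 to 1.63). Within a pair, GSC had 10.4 reads for each GATA6 read in endoderm G1 (9.23 to 11.7) and 18.5 in endoderm G1/S (15.8 to 21.7). In endoderm S it had 15.2 (12.0 to 19.5). SOX17 had 2.16, 2.09 and 1.38 reads for each FOXA2 read in endoderm, with intervals that overlap. These are ratios of reads followed across libraries, and give no order of abundance between genes. They still compare transcript ends of unlike base composition, given below.

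In hESCs, only GSC had reads enough to follow. Its hESC signal at G1/S was 0.792 of that at G1 (0.589 to 1.06), at S it was 0.620 of that at G1/S (0.448 to 0.857), and at S it was 0.491 of that at G1 (0.368 to 0.651). FOXA2 in hESC S was 0.213 of its hESC G1 signal (0.0381 to 0.806), from 3 and 11 reads. Every other phase ratio of SOX17, FOXA2 and GATA6 in hESCs had an interval that holds 1, so no difference was detectable at this depth.

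**Figure D3:**
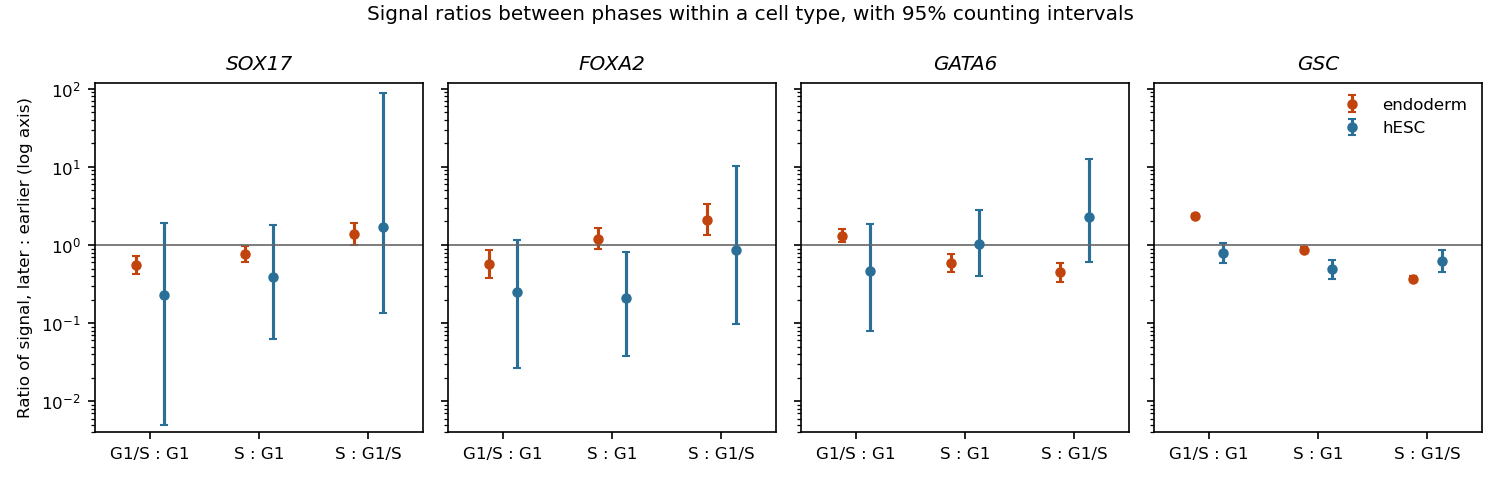
Ratio of signal between phases within endoderm (left point of each pair) and within hESCs (right point), later over earlier phase on a log axis, with 95% counting intervals and a line at 1. In endoderm the G1/S to G1 ratio is 2.35 for GSC and 1.32 for GATA6, and 0.557 for SOX17 and 0.575 for FOXA2.

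Such shifts were common in these libraries. Between endoderm G1/S and G1, a difference of log2(value + 1) of at least 1 was reached upward by 14.9% and downward by 21.8% of all regions, and by GSC (1.23) alone of the 4 genes. Between endoderm S and G1/S it was reached upward by 16.7% of regions, FOXA2 (1.05) among them, and downward by 11.8%, GSC (-1.43) and GATA6 (-1.14) among them. Between hESC G1/S and G1 it was reached downward by 18.1% of regions, SOX17 (-1.44) and FOXA2 (-1.597) among them, and between hESC S and G1 downward by 10.1%, FOXA2 (-1.75) and GSC (-1.01) among them. None of the 4 reached it upward between hESC G1/S and G1 (12.9% of regions) or hESC S and G1 (15.4%), nor in either direction between endoderm S and G1 (10.6% up, 12.6% down) or hESC S and G1/S (18.9% up, 9.01% down). No phase comparison over both types made a call in limma (0% of 14657 regions), and the 4 genes had limma adjusted p between 0.378 and 0.982. The smallest unadjusted p was that of GSC for S against G1/S, at 0.0347, with a log2(value + 1) difference of -1.05 ± 0.41 (SE, limma adjusted p = 0.463). That difference was -0.48 without endoderm G1/S and -1.63 without hESC G1/S. Unadjusted p lay under 0.05 in 2002 regions for G1/S against G1, in 497 for S against G1 and in 1552 for S against G1/S. edgeR also made 0 calls in each, and DESeq2 made 89, 1 and 150.

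Base composition moved with the G1/S libraries. The last 500 bases of the GENCODE transcripts hold 32.8% G and C in SOX17, 35.2% in FOXA2, 37.8% in GATA6 and 59.0% in GSC. Over the 85.2% of named regions with such a value, the rank correlation between GC content and the G1/S minus G1 difference was 0.45 in endoderm and 0.33 in hESCs, as a description of 1 pair of libraries each. Among regions within 2.5 percentage points of each gene's GC content, the median endoderm G1/S minus G1 difference of log2(value + 1) can be set beside the gene's own. SOX17 was at -0.84, against a median of -0.58, and FOXA2 at -0.79, also against -0.58. GSC was at 1.23, against a median of 0.61. GATA6 lay on the other side of its neighbours in GC content, at 0.40 against a median of -0.56, in the deposited scaling. In hESCs it was GSC that lay on the other side, at -0.33 against a median of 0.35. There SOX17 was at -1.44 against -0.52, FOXA2 at -1.60 against -0.49 and GATA6 at -0.92 against -0.36, each on few hESC reads. The part of base composition in the phase differences was not tested. Without both G1/S libraries the difference between the cell types was 5.49 for SOX17, 4.33 for FOXA2, 4.40 for GATA6 and 4.88 for GSC, and all 4 were still called.

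Regions without a gene name lie close to 3 of the 4 genes. Within 100 kb there were 5 of them, 2 by FOXA2, 1 by GATA6 and 2 by GSC, and none by SOX17. The window was chosen with the values in view, so these are descriptions with no test. Region NOVEL_4193, on the FOXA2 strand and 20465 bases downstream of it, had a signal of 89.1, 73.2 and 92.4 in endoderm, against 3.78, 2.08 and 2.36 in hESCs. Its endoderm libraries differed by at most 1.26 times, and its G1/S signal was 0.822 of that in G1 (0.570 to 1.17), an interval that holds 1. Region NOVEL_2065, on the opposite strand and 20627 bases from FOXA2, overlaps NOVEL_4193 in position (22489152 to 22489277 against 22489439 to 22489235). It had a signal of 64.2, 6.65 and 58.2 in endoderm, against 0.757, 0 and 2.95 in hESCs. Its endoderm G1/S signal was 0.104 of that in G1 (0.0277 to 0.274), on 4 and 93 reads. Leaving the G1/S libraries aside, it stood at 58.2 or more in endoderm and 2.95 or less in hESCs.

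Upstream of GATA6, on the opposite strand and 34516 bases away, NOVEL_4073 had a signal of 178, 53.2 and 51.3 in endoderm, against 3.03, 1.04 and 2.95 in hESCs. It was highest in endoderm G1, where GATA6 was highest at G1/S in the deposited scaling. Downstream of GSC, on its strand and 10881 bases away, NOVEL_3773 had a signal of 215, 275 and 95.9 in endoderm, against 4.54, 6.25 and 1.18 in hESCs. Like GSC it was highest at endoderm G1/S, and its S signal was 0.349 of that at G1/S (0.253 to 0.476). NOVEL_3772, 11268 bases from GSC on the same strand, had a signal of 77.3, 38.3 and 66.8 in endoderm, against 8.32, 2.08 and 5.32 in hESCs, and was lowest at endoderm G1/S. In all 5 the lowest endoderm value lay above the highest hESC value, as it did in 15.4% of the 4300 unnamed regions tested. Whether any of them belongs to the transcript of the gene beside it was not tested.

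**Figure D4:**
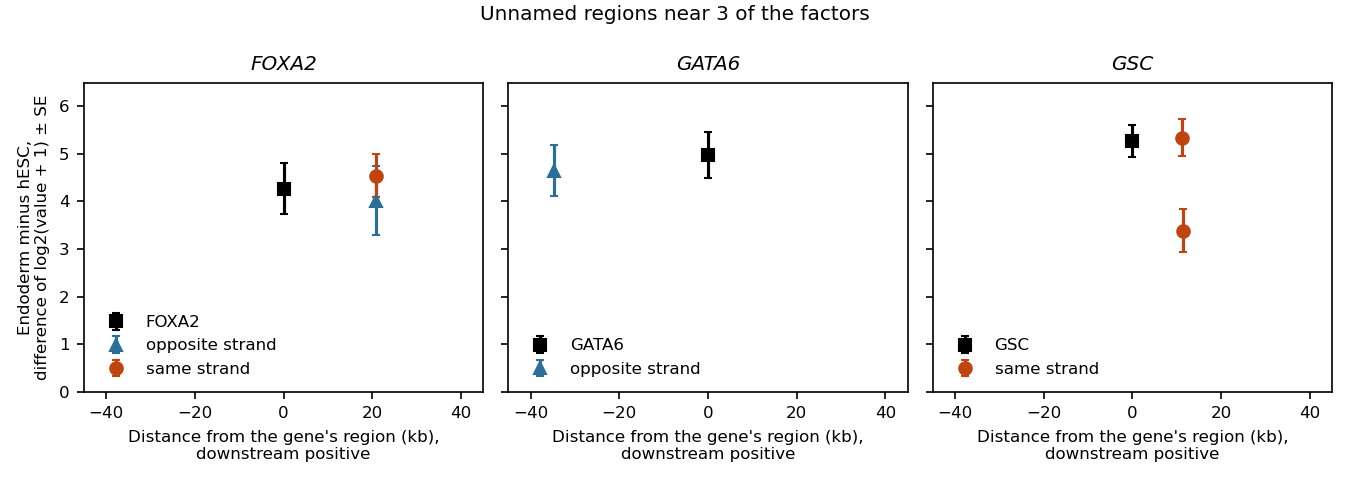
Endoderm minus hESC difference of log2(value + 1) with its standard error, for FOXA2, GATA6 and GSC (squares at 0) and the unnamed regions within 100 kb, against distance from the gene's region in kb with downstream positive. All 5 unnamed regions lie above 0, from 3.39 (NOVEL_3772) to 5.34 (NOVEL_3773).

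The closest relatives of the 4 factors were measured where they had a region. Of 10 paralogues 4 were in the table, and 3 were called higher in endoderm, beside 6.9% of all regions tested. GATA4, the partner of GATA6 in endoderm and heart, had a signal of 150, 230 and 161 in endoderm, against 4.54, 6.25 and 8.86 in hESCs, on the most abundant of its 3 regions (log2 difference 4.60 ± 0.39 SE, limma adjusted p = 0.00221). Its endoderm signal was highest at G1/S, as that of GATA6 was in the deposited scaling. GATA3 averaged 179 ± 69.6 in endoderm and 27.0 ± 4.76 in hESCs, and SOX18, a vascular factor of the SOX17 group, 318 ± 302 in endoderm and 18.4 ± 8.91 in hESCs (SD, n = 3 each). FOXA3 was not called, with 236 ± 61.6 in endoderm and 183 ± 68.7 in hESCs (log2 difference 0.41 ± 0.39 SE, limma adjusted p = 0.488). GATA1, GATA2, GATA5, FOXA1, SOX7 and GSC2 were not analysed here.

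Other regulators of the endoderm program went with them in most cases. Of 22 listed, 17 were measured, 11 were called higher in endoderm and 1 lower (beside 6.9% and 7.6% of all regions), and 5 were not called, with a median log2 difference of 2.81 beside 0.02 over all regions. The count called higher was 7 when the G1/S library of hESCs was left out, 8 when that of endoderm was left out and 7 when both were. EOMES, MIXL1, LHX1, OTX2, GATA4, HNF4A and KLF5 kept their call whichever library was left out. The calls of GATA3 and FOXQ1 were lost without either G1/S library and that of SOX18 without hESC G1/S, while ZIC2 kept its call in 2 of the 6 fits with 1 library left out. GATA3, GATA4, SOX18 and FOXA3 stand in this list as well as among the paralogues. EOMES, the T-box factor that opens the endoderm program downstream of nodal, had a signal of 5270, 8989 and 3670 in endoderm, against 275, 277 and 219 in hESCs (log2 difference 4.44 ± 0.26 SE, limma adjusted p = 0.00118). Like GSC, it was highest at endoderm G1/S and lowest at endoderm S. MIXL1, a homeobox factor of the streak, averaged 796 ± 594 in endoderm and 35.8 ± 5.70 in hESCs, and LHX1, a LIM homeobox factor of the organizer, 2085 ± 2174 in endoderm and 93.2 ± 36.7 in hESCs. The wide endoderm spread of LHX1 comes from 4587 at G1/S against 661 at G1 and 1006 at S.

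A factor of later endoderm was higher too. HNF4A, a nuclear receptor of liver and of visceral endoderm, averaged 175 ± 47.3 in endoderm and 20.5 ± 1.49 in hESCs (SD, n = 3 each). The other genes called higher were OTX2 (3.55), FOXQ1 (3.98), KLF5 (2.81) and ZIC2 (1.78), given as log2 differences. ONECUT1, a factor of liver and pancreas, was the gene called lower, with 4.65 ± 3.44 in endoderm and 30.5 ± 8.35 in hESCs (log2 difference -2.61 ± 0.63 SE, limma adjusted p = 0.0348), a call that was lost without hESC G1 and without either G1/S library. The SMAD proteins that carry the activin signal were not called. SMAD3 averaged 188 ± 14.1 in endoderm and 377 ± 110.1 in hESCs (log2 difference -0.96 ± 0.28 SE, limma adjusted p = 0.0587), and SMAD4 24.1 ± 2.25 in endoderm and 35.7 ± 20.6 in hESCs (-0.41 ± 0.43 SE, limma adjusted p = 0.522). FOXH1, the DNA-binding partner of SMAD proteins, averaged 902 ± 338 in endoderm and 781 ± 74.4 in hESCs (0.14 ± 0.26 SE, limma adjusted p = 0.722), and PRDM1 had a log2 difference of 1.57 (limma adjusted p = 0.0762). T, HHEX, FOXA1, SOX7 and SMAD2 were not analysed here.

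**Figure D5:**
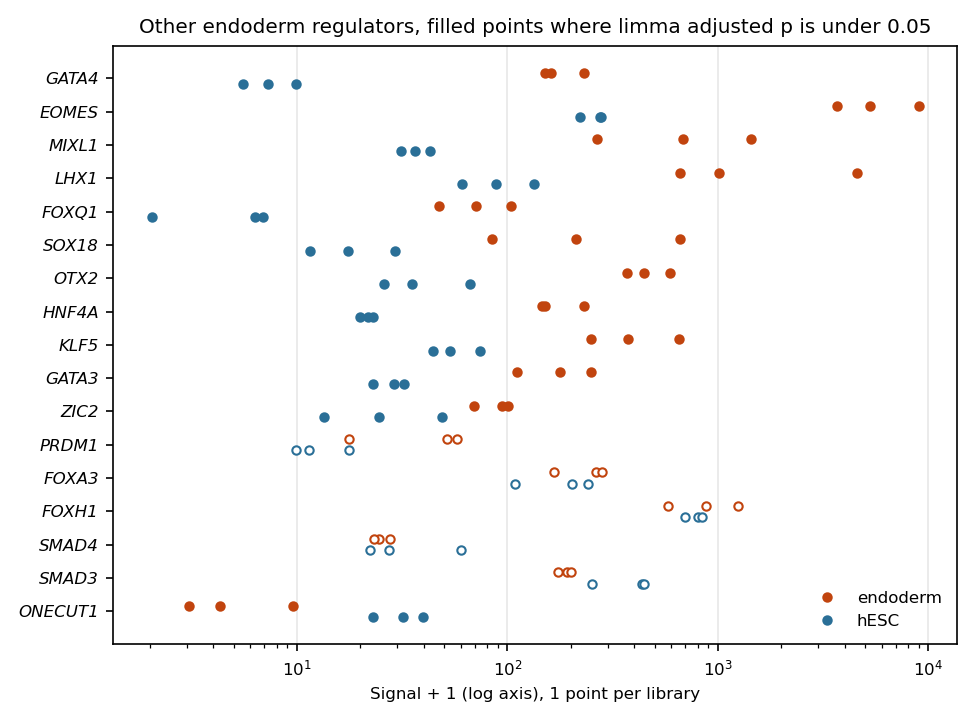
Signal + 1 (log axis) of the 17 measured regulators, 1 point per library, endoderm above hESC in each gene's line, with filled points for genes called by limma at an adjusted p under 0.05 and open points for the 5 not called. The genes run from GATA4 (4.60) at the top to ONECUT1 (-2.61) at the bottom by log2 difference.

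The genes most like each factor over the 6 libraries were found by the root mean square difference between centred log2(value + 1) profiles, among 10356 named regions. For SOX17 they were DIO3, FGF17, CXCR7, FREM1 and BMP2 (0.53 to 0.59 log2 units). For FOXA2 they were IGFBP5, ANKRD1, PCDH10, BMP2 and SEMA3E (0.33 to 0.49), and for GATA6 FOXI1, CER1, NFU1, PLUNC and EOMES (0.35 to 0.48). For GSC they were RXRG, FGF17, DIO3AS, DIO3 and PLUNC (0.25 to 0.44). RXRG, a retinoid receptor and the nearest to GSC, had a signal of 117, 319 and 139 in endoderm, against 3.78, 4.16 and 1.18 in hESCs. IGFBP5, which binds insulin-like growth factors and is the nearest to FOXA2, had 1803, 1353 and 2651 in endoderm, against 142, 93.7 and 75.0 in hESCs. Its endoderm low at G1/S, as for FOXA2, was favoured by its being picked for a like profile. Among the 4 factors, GATA6 and GSC were the most alike pair (0.56) and FOXA2 and GSC the least alike (0.98). PLUNC had 0 reads in all 3 hESC libraries.

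The label of endoderm was set beside marker lists, since GATA6, SOX17 and FOXA2 are shared with other tissues. The lists were chosen with earlier results of these data known, so their counts are a description and not a test of the label. Over all regions 6.9% were called higher and 7.6% lower, beside which the counts of each list are to be read. EOMES, LHX1, HNF4A, MIXL1 and GATA3 stand in these lists as well as among the regulators above, so the lists are not independent of them. Of 8 definitive endoderm markers besides the 4 factors, all 5 measured were called higher in endoderm, with a summed signal of 6948 to 15944 in endoderm libraries and 443 to 545 in hESC libraries. EOMES alone made up 3670 (S) to 8989 (G1/S) of the endoderm sums. CXCR4, the chemokine receptor used to sort such cells, averaged 524 ± 208 in endoderm and 22.4 ± 14.6 in hESCs (SD, n = 3 each). Of 4 measured extraembryonic endoderm markers, HNF4A, SPARC and LAMB1 were called higher, with a sum of 1765 to 3451 in endoderm and 711 to 845 in hESCs. The fourth, TTR, was called lower, with 0 reads in all 3 endoderm libraries and a signal of 14.8 to 15.6 in hESCs. AFP, APOB, SOX7 and PDGFRA were not analysed here. Of 4 measured neuroectoderm and floor plate markers, all 4 were called higher and none was at 0 in endoderm, with a sum of 236 to 467 in endoderm and 49.0 to 65.6 in hESCs. NKX2-2 still overlapped between the types, at 4.14 in endoderm G1 and 4.16 in hESC G1/S. Of 3 measured streak and mesoderm markers, MIXL1 was called higher and TBX6 and KDR were not called (sum 294 to 1466 in endoderm and 88.6 to 96.8 in hESCs). Of 3 trophoblast markers GATA3 was called higher and KRT7 and TFAP2C lower (139 to 303 in endoderm and 216 to 319 in hESCs). Of 3 genes listed for fibroblasts COL1A1 and THY1 were called lower and COL1A2 was not called (1853 to 3396 in endoderm and 5276 to 9103 in hESCs). THY1 alone made up 3340 (G1) to 5536 (G1/S) of the hESC sums, and which cells it came from was not tested. Of 7 pluripotency markers SOX2 was called lower and the other 6, POU5F1 among them, were not called (1818 to 2703 in endoderm and 2624 to 2976 in hESCs). With 1 library left out in turn, the calls of CXCR4, CER1, FZD8, SPARC and PAX6 were kept in all 6 fits, those of SHH, SOX2 and KRT7 in 5 (lost without a G1/S library), those of LAMB1, COL1A1 and THY1 in 4 (lost without either G1/S library), those of NKX2-2 and TFAP2C in 2 and those of TTR and NCAM1 in 1. The part of cells of other types, or of cells still pluripotent, in the level of the 4 factors was not tested.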

How the data were processed

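The authors deposited 1 table of signal values for 14686 regions in 6 libraries of 3' read ends, from poly(A) RNA amplified for 15 cycles, per the labels' protocols. Builds hg18 and NCBI36 and the tools Bowtie 0.12.7, CASAVA 1.5 and DESeq 1.5.24 are listed, without roles, per the submitters' processing notes. The deposited signal is on a linear scale, whatever the variance-stabilising transform in the table's name. In each library 100% of values are whole reads divided by 1 constant (tolerance 1e-06), so reads were recovered. Regions with log2(value + 1) of at least 1 in at least 3 libraries were kept (14657, with 29 removed). limma 3.58.1 in R 4.3.3 was fitted with type and phase terms (lmFit, eBayes with trend, residual df 2, prior df 5.46) and Benjamini-Hochberg adjustment at 0.05 over all regions, and was tested on simulated data. edgeR 4.0.16 and DESeq2 1.42.0 were run on the recovered reads as alternatives. A type by phase interaction leaves no residual degrees of freedom. Intervals are exact Poisson (values) and exact binomial (ratios). Genes were named if they were 1 of the 4 factors, a measured gene of the listed regulators, paralogues or markers, or among the 5 nearest profiles of a factor, each by its most abundant region. Some listed genes are not reported here, and counts leave them out. The 4 genes and all lists were chosen with earlier results of these data known.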

Additional observations from a re-analysis of the deposited data

Results flagged for a closer look

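Of 12 phase differences of the 4 factors, 6 went in opposite directions in endoderm and in hESCs. These are 2 of the 4 genes in each contrast. Over all 14657 regions tested the directions were opposite in 36.0% for G1/S against G1, in 52.3% for S against G1 and in 33.5% for S against G1/S. Each rests on 1 library per type and phase, and the difference between the types was not tested. Values are differences of log2(value + 1) in the deposited scaling, and the gap is endoderm minus hESC.

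GSC from G1 to G1/S differed by 1.23 in endoderm and -0.33 in hESCs, a gap of 1.57. GATA6 from G1 to G1/S differed by 0.40 in endoderm and -0.92 in hESCs, a gap of 1.32. GATA6 from G1/S to S differed by -1.14 in endoderm and 0.97 in hESCs, a gap of -2.11, and from G1 to S by -0.74 in endoderm and 0.05 in hESCs, a gap of -0.79. FOXA2 from G1 to S differed by 0.26 in endoderm and -1.75 in hESCs, a gap of 2.01, and from G1/S to S by 1.05 in endoderm and -0.15 in hESCs, a gap of 1.20. The hESC values of GATA6 and FOXA2 rest on 2 to 12 reads per library. For GSC the hESC reads were 132 in G1 and 76 in G1/S, and the interval of their ratio holds 1.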

How the results depend on the processing

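The higher level of SOX17, FOXA2, GATA6 and GSC in endoderm kept its direction and its call in every alternative that was run. FOXA2 has no value with a filter on a mean of at least 50, which leaves it untested. Summing over regions did not apply, since each of these genes has 1 region. Without the phase term, that is with no replicate block, 1825 regions were called and the 4 differences were as before. The number of regions called between the types, 2125 (1011 higher and 1114 lower in endoderm), was 986 with that filter (544 and 442), 1466 without the intensity trend (587 and 879), 1990 with edgeR (816 and 1174), 2780 with DESeq2 (1379 and 1401), and 415 without both G1/S libraries. With 1 library left out it ran from 419 (without hESC G1/S) to 2344 (without endoderm G1), with 571 without endoderm G1/S, 975 without hESC S and 1200 without endoderm S. The count of other endoderm regulators called higher, 11, was 7 without both G1/S libraries and 7 to 11 with 1 library left out.

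Phase comparisons made 0 calls. DESeq2 made 89 for G1/S against G1, 1 for S against G1 and 150 for S against G1/S, and leaving out 1 library gave 0 to 329, 0 to 201 and 0 to 245. The difference of GATA6 for G1/S against G1 (-0.26) was 0.012 with DESeq2 and -1.12 to 0.60 with 1 library left out, and that of GSC (0.45) -0.14 to 1.05. For S against G1, leaving out 1 library gave FOXA2 -1.55 to 0.061 and GATA6 -1.07 to 0.38. For S against G1/S, quantile normalisation gave SOX17 -0.075 and FOXA2 -0.23 (0.45 in the fit reported for each), and leaving out 1 library gave FOXA2 -0.36 to 1.25 and GATA6 -0.94 to 0.77. The cause was not tested. The median region's difference for G1/S against G1 was 0.28 with median centring and 0.07 without. Depth limits the hESC values of SOX17 (10 reads over 3 libraries), FOXA2 (16) and GATA6 (24).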

Other observations

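Neuroectoderm and floor plate genes, some of which FOXA2 accompanies in the neural tube, were read library by library, given in the order G1, G1/S and S. SHH, the signalling protein of the floor plate and of the gut lining, had a signal of 35.2, 106 and 61.6 in endoderm, against 0.757, 1.04 and 1.77 in hESCs (log2 difference 4.86 ± 0.58 SE, limma adjusted p = 0.00433). PAX6, a factor of the eye, neural tube and pancreas, had 82.9, 148 and 139 in endoderm, against 4.54, 3.12 and 7.09 in hESCs. NKX2-2, a factor of the ventral neural tube and the pancreas, had 4.14, 73.2 and 32.5 in endoderm, against 0.757, 4.16 and 2.95 in hESCs, and its types overlap. SHH and NKX2-2 had their highest endoderm signal at G1/S, where FOXA2 was lowest, while PAX6 had close values at G1/S and S. These orders rest on 1 library per phase and were not tested, and no intervals were computed for these 3 genes.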
